A study of Mus musculus with 12 samples.

Results

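Messenger RNA of 8 genes that repair DNA during antibody class switching was followed in mouse B cells sorted by the number of divisions they had made: Ung, Apex1, Msh6, Exo1, Polh, Trp53bp1, Lig4 and Xrcc4. They were chosen by name, with earlier results of these data known but no measured value in the rule, out of 21761 genes in the deposited table, and all 8 passed the filter on low counts. Per the design text, splenic B cells (B220+ CD43-) of naïve C57/BL6J mice carried a division dye, CFSE or CTV, and were moved into uMT mice, hosts that cannot make mature B cells of their own. LPS, a bacterial product that makes B cells divide and secrete antibody, was given, and cells were sorted on day 3. All 12 libraries share this treatment, are of spleen, and carry the same labels of sex (female), age (8 weeks) and strain (B6.SJL-Ptprca Pepcb/BoyJ). Whether that strain and age describe the donors or the hosts, and whether donor cells were pooled, is not stated. The groups are Div0, Div1, Div3, Div5, Div8neg and Div8pos, the number being that of divisions and Div8 meaning at least 8 of them. Div8neg cells lacked CD138, the surface protein of antibody-secreting cells, and Div8pos cells carried it. Each group has 2 libraries, 1 from host 196 and 1 from host 197, so that an exact test of 2 against 2 libraries cannot go below a two-sided p of 0.333, and the adjusted p-values below rest on models fitted across all genes.

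A B cell changes antibody class by cutting and rejoining its heavy chain gene. A deaminase turns cytosines in the switch regions into uracils, and repair enzymes that in other cells guard the genome turn those uracils into breaks. Ung, a uracil glycosylase, removes the uracil base and Apex1, an endonuclease, cuts the strand at the empty site; Msh6, a part of the mismatch recognition complex, sees the same lesion as a mismatch, and Exo1, an exonuclease, digests the strand from there. Polh, a polymerase that copies past damage, fills the gap and makes errors in antibody variable regions. Trp53bp1 encodes a chromatin-bound protein that shields the broken ends from trimming, and Lig4 with its partner Xrcc4 seals them in end joining. Most of these enzymes also work during ordinary DNA replication, so they are not particular to B cells.

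The promoters are shown because most of the genes moved one way and Trp53bp1 the other. RefSeq promoter sequences of build GRCm38.p6 were at hand for 7 of the 8 genes, all but Exo1, while the deposited counts used mm9. The windows are the 250 bases before the start of Ung (chr5:114130185-114130434, plus strand), of Lig4 at 1 of its 2 listed starts (chr8:9976312-9976561, minus strand) and of Trp53bp1 (chr2:121271408-121271657, minus strand). Capitals mark GGGCGG, the GC box, on either strand (CCGCCC on the other).
Ung: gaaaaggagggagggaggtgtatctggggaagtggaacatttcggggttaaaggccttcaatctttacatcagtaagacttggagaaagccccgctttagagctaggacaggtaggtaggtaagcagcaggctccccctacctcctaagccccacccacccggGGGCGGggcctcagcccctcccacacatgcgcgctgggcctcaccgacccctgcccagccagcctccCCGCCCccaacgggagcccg
Lig4: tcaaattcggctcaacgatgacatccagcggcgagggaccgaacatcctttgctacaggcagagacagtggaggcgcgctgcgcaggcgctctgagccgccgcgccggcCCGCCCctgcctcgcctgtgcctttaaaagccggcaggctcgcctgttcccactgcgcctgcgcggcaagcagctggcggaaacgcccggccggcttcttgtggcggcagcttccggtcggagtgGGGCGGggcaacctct
Trp53bp1: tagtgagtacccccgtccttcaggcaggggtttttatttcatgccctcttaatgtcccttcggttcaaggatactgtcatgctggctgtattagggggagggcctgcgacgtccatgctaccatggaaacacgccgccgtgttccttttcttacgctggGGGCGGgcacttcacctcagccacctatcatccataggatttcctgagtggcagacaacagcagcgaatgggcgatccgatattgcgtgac
GGGCGG was found in each of the 7 genes, in Lig4 at only 1 of its 2 starts, and 32.7% of 32851 promoter windows of the same length hold it. TTTCCCGC and TTTGGCGC, letters of the E2F site, were searched on both strands and were in none of the 7 genes. Only 1.3% of all windows hold either, so none of 7 is near that share. Exo1 could not be searched. CCAAT was in Apex1 and Msh6, as in 33.8% of all windows, and CACGTG, the E-box, was in Apex1, as in 6.02%. These matches are letters in a window. The GC box was present in genes that rose and in the gene that fell. Neither CCAAT nor CACGTG was in Trp53bp1, and neither was in Ung, Polh, Lig4 or Xrcc4.

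The libraries held between 11541406 and 14961666 gene counts. Levels are given on 2 scales, CPM and the authors' mRNAs per cell. CPM is a count scaled to the gene total of its library, is relative to all other genes and does not correct for gene length. For the 8 genes and other repair genes that total was of genes passing the filter, adjusted by edgeR's TMM factor (0.9455 to 1.021). For markers and summed levels it was the unadjusted total. The mRNAs per cell are scaled to spike-in RNA and to exon length. Total mRNA per cell itself differed, at 163027 ± 15578 in Div8pos, 100284 ± 4757 in Div8neg and 30493 ± 4362 in Div0 cells (mean ± SD, n = 2 each), so a gene can fall relative to the others and still not fall per cell. Sdc1, which encodes CD138, was at 298 to 313 CPM in Div8pos libraries and at most 6.01 CPM elsewhere. The summed CPM of 6 B cell markers was 904 to 918 in Div8pos and 6001 to 6118 in Div8neg libraries. Of other cells, 6 T cell markers summed to at most 2.6 CPM and 4 NK cell markers to at most 1.14 CPM in any library, and 6 myeloid markers to 9.07 to 10.2 CPM in Div8pos and 124 to 161 CPM in Div8neg libraries. Most of that Div8neg sum was Itgam, at 105 to 135 CPM there, 8.3 to 14.0 CPM in Div0 and 1.44 to 2.50 CPM in Div8pos libraries. No other myeloid marker was above 6.92 CPM in Div8neg libraries. The myeloid sum was 38.34 to 61.78 CPM in Div0, 40.45 to 92.11 in Div1, 39.5 to 68.24 in Div3 and 74 to 114.4 in Div5 libraries. S100a9 was uneven between the 2 libraries of a group, at 3.864 and 19.67 CPM in Div0 and 2.554 and 32.23 CPM in Div1. In any library 3 erythroid markers summed to at most 17.05 CPM. The part of these other cells in the results was not tested. In bulk libraries like these, fewer cells with a transcript and less transcript per cell cannot be told apart.

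At neither early step did any of the 8 genes pass the test on the relative scale, and 0 of 8 is near the share of all genes. Between Div1 and Div0, edgeR's quasi-likelihood test with Benjamini-Hochberg adjustment called 0 of the 8 genes, against 9.35% of the 12026 genes tested. DESeq2 also called 0, and 3 of the 8 had an unadjusted p under 0.05: Exo1, Polh and Lig4. Between Div3 and Div1 it called 0 of 8 against 3.42% of all genes; DESeq2 called 0 as well and no member had an unadjusted p under 0.05. The median log2 fold change of the 8 was 0.00 for Div1 against Div0, beside -0.01 over all genes. It was 0.02 for Div3 against Div1, beside 0.00 over all genes. Over both steps together, Div3 against Div0, 1 of the 8 was called higher and 0 lower, against 14.4% and 12.5% of all genes: Polh, 1.22-fold (log2 fold change 0.29 ± 0.07 (SE), adjusted p = 0.00606).

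**Figure D1:**
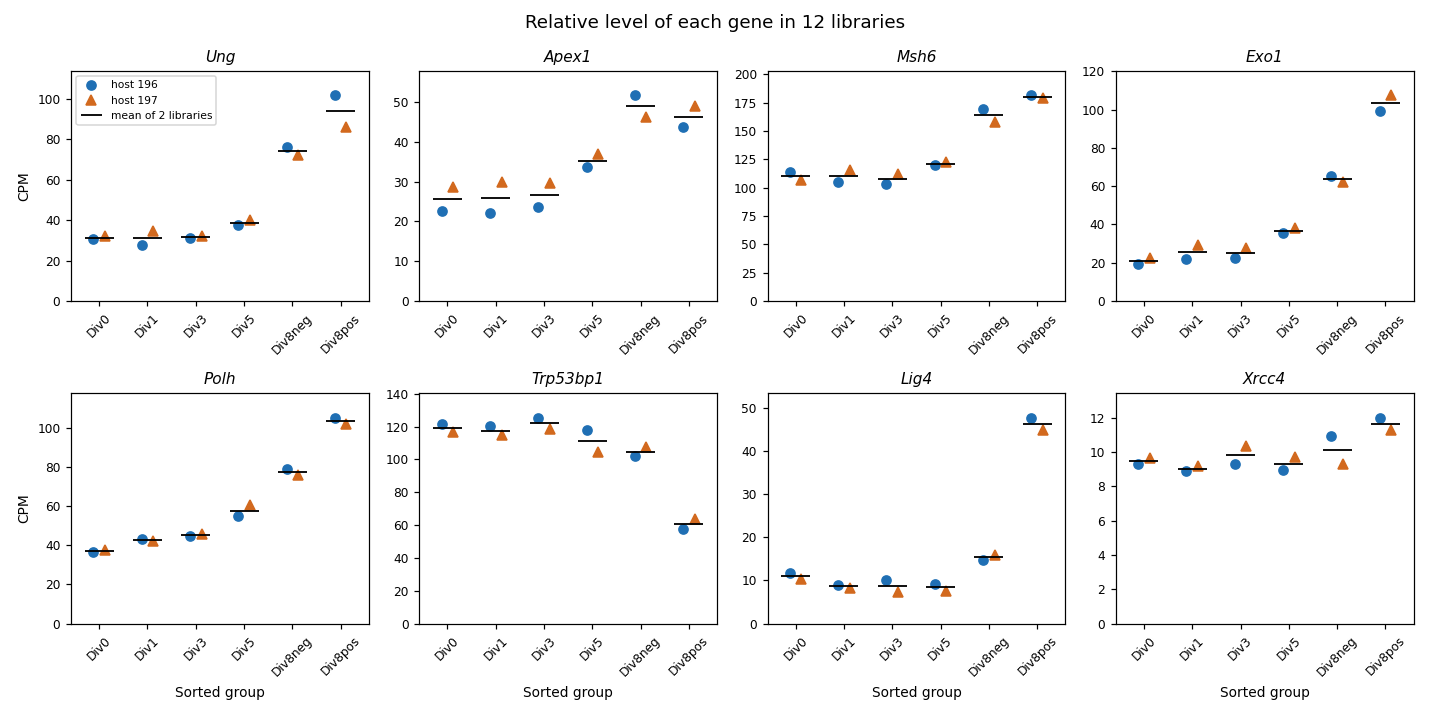
Relative level of each of the 8 genes in CPM (y axes, each from 0) in the 6 sorted groups (x axes); circles are host 196, triangles host 197 and lines the mean of 2 libraries. Ung, Exo1, Polh and Lig4 are highest in Div8pos. The means of Msh6 and Xrcc4 are also highest there, but their steps from Div8neg were not called. Trp53bp1 is lowest in Div8pos at 60.5 CPM, and Xrcc4 stays between 8.90 and 11.999 CPM in every library.

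The uracil pathway opens with Ung. In hosts 196 and 197 its level was 30.5 and 32.3 CPM in Div0, 28.0 and 34.9 in Div1, 31.0 and 32.1 in Div3, 37.4 and 40.0 in Div5, 76.1 and 72.2 in Div8neg, and 102 and 86.3 in Div8pos. The first 3 groups overlapped, and from Div5 on each group lay wholly above the one before it. Div5 was 1.22-fold above Div3 (log2 fold change 0.29 ± 0.10 (SE), adjusted p = 0.0485), a call that DESeq2 did not make (adjusted p = 0.0708) and that was lost when any 1 library of Div0, Div3, Div5 or Div8neg was left out, with adjusted p-values up to 0.255. Div8neg was 1.92-fold above Div5 (0.94 ± 0.09, adjusted p = 1.17e-06), the largest step of Ung on this scale. Div8pos was a further 1.27-fold above Div8neg (0.34 ± 0.09, adjusted p = 0.00231).

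Apex1, which acts after Ung, rose with it up to Div8neg. It ranged over 22.0 to 29.9 CPM in the 6 libraries of Div0, Div1 and Div3. It was at 33.7 and 36.9 CPM in Div5, 51.6 and 46.2 in Div8neg, and 43.7 and 48.9 in Div8pos for hosts 196 and 197. Both Div8 groups lay above Div5 and overlapped each other. Div5 was 1.32-fold above Div3 (adjusted p = 0.0482) and Div8neg 1.39-fold above Div5 (0.47 ± 0.13, adjusted p = 0.00685). The first call was lost without the host 196 library of Div3 or any 1 library of Div5, Div8neg or Div8pos, with adjusted p-values up to 0.331, and the second without the host 196 library of Div5 (0.0655) or of Div8neg (0.0666). Between Div8pos and Div8neg the log2 difference was -0.08, with a 95% interval of -0.36 to 0.19. Per length, the ratio of Ung to Apex1 mRNAs was 1.21 and 0.916 in Div8pos libraries, against 0.764 and 0.811 in Div8neg libraries.

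Msh6 and Exo1, which take the mismatch route, differed in how far they moved. Msh6 ranged over 103 to 115 CPM in the 6 libraries of Div0, Div1 and Div3, and was at 120 and 122 CPM in Div5, 170 and 158 in Div8neg and 181 and 179 in Div8pos. Both Div8 groups lay above Div5. The Div8neg level was 1.35-fold above Div5 (0.44 ± 0.06, adjusted p = 4.21e-05). For 2 steps of Msh6 the call turned on the host: Div5 against Div3 gave an adjusted p of 0.0692 without and 0.0416 with the host as a block, and Div8pos against Div8neg gave 0.0636 without and 0.041 with it (0.0495 by DESeq2).

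Exo1 had 19.3 and 22.4 CPM in Div0, 21.9 and 29.0 in Div1, 22.5 and 27.8 in Div3, 35.5 and 38.2 in Div5, 65.1 and 62.0 in Div8neg and 99.1 and 107 in Div8pos, for hosts 196 and 197. From Div5 on, both libraries of each group lay above both of the group before. The steps were 1.46-fold for Div5 against Div3 (0.54 ± 0.12, adjusted p = 0.00427), 1.73-fold for Div8neg against Div5 (0.79 ± 0.11, adjusted p = 2.31e-05) and 1.62-fold for Div8pos against Div8neg (0.70 ± 0.10, adjusted p = 1.14e-05). The first of them was lost without the host 196 library of Div3 (0.0557) or the host 197 library of Div5 (0.0531). Over all, Exo1 was 4.97-fold higher in Div8pos than in Div0, the largest relative rise of the 8 genes, against 1.63-fold for Msh6. Within a library, Exo1 mRNAs per Msh6 mRNA were 0.131 and 0.163 in Div0, 0.162 and 0.195 in Div1, 0.169 and 0.192 in Div3, 0.229 and 0.242 in Div5, 0.297 and 0.303 in Div8neg, and 0.423 and 0.464 in Div8pos.

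Polh is the gap-filling polymerase. It was at 36.4 and 37.7 CPM in Div0, 43.1 and 42.1 in Div1, 44.9 and 45.7 in Div3, 55.0 and 60.3 in Div5, 78.9 and 75.9 in Div8neg and 105 and 102 in Div8pos. No library of a later group was below any library of an earlier one. Beside the early rise of Div3 over Div0, the called steps were 1.27-fold for Div5 against Div3 (0.35 ± 0.07, adjusted p = 0.00157), 1.34-fold for Div8neg against Div5 (0.43 ± 0.06, adjusted p = 4.14e-05) and 1.34-fold for Div8pos against Div8neg (0.42 ± 0.06, adjusted p = 1.29e-05).

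Trp53bp1, the end protector, went the other way in Div8pos. Its level was 122 and 116 CPM in Div0, 120 and 115 in Div1, 125 and 119 in Div3, 118 and 104 in Div5, 102 and 107 in Div8neg, and 57.5 and 63.5 in Div8pos. The Div8pos libraries lay far below all 10 others, and the neighbours in order among the other 5 groups did not differ beyond their spread. Div8pos was 1.73-fold below Div8neg (log2 fold change -0.79 ± 0.07, adjusted p = 8.81e-08) and lower in both hosts, at ratios of 0.564 and 0.592. Div8neg was 1.14-fold below Div0 (adjusted p = 0.0249), and this was not called without the host 196 library of Div0 (0.133) or of Div8neg (0.168). Div8neg was also called lower than Div3 (log2 fold change -0.22, adjusted p = 0.00959) and Div1 (-0.17, adjusted p = 0.0409). Both Div8neg libraries lay below every library of Div0, Div1 and Div3, and overlapped those of Div5. The calls against Div3 and Div1 share the Div8neg libraries and were not tested by leaving out a library. Per cell the level was lower in Div8pos than in Div8neg in both hosts but did not pass the test, and it was higher than in Div0: Trp53bp1 was at 2.10 and 2.07 mRNAs per cell in Div8pos, 2.31 and 2.64 in Div8neg, and 0.820 and 0.934 in Div0. The per-cell difference of Div8pos from Div8neg was -0.23 on the log2 scale, with a 95% interval of -0.68 to 0.21 and an adjusted p of 0.351 by limma, and with spike-in scaling of the counts it was -0.21 with an adjusted p of 0.41.

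Lig4, the ligase of end joining, was the member with the largest rise at the last step. It was at 11.7 and 10.3 CPM in Div0, 8.90 and 8.33 in Div1, 9.996 and 7.36 in Div3, 9.24 and 7.61 in Div5, 14.8 and 15.8 in Div8neg, and 47.6 and 44.7 in Div8pos. These values rest on 95 to 157 counts a library up to Div5 and on 595 and 508 counts in Div8pos. Div8neg lay above all earlier groups and Div8pos far above Div8neg. The step of Div8neg over Div5 was 1.81-fold (0.86 ± 0.14, adjusted p = 0.00014) and that of Div8pos over Div8neg 3.02-fold (1.59 ± 0.12, adjusted p = 4.81e-09), by ratios of 3.22 and 2.83 in the 2 hosts. Div8neg was 1.39-fold above Div0 (adjusted p = 0.00638), which was lost without the host 197 library of Div0 (0.0583). Div5 against Div0 gave a log2 fold change of -0.38 ± 0.15 with an adjusted p of 0.0514, and 0.0274 when the fit took the host as a block.

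Xrcc4, which holds Lig4 stable in their shared complex, did not pass the test at any step on the relative scale. It was at 11.999 and 11.3 CPM in Div8pos, 11.0 and 9.33 in Div8neg, and 9.31 and 9.67 in Div0, with every other library between 8.90 and 10.3 CPM. Div8pos against Div8neg gave a log2 difference of 0.20, with a 95% interval of -0.08 to 0.48 and an adjusted p of 0.191, and Div8pos against Div0 gave 0.30 with an adjusted p of 0.0521. Against 2 other groups Div8pos was called higher, 1.29-fold over Div1 (adjusted p = 0.0206) and 1.25-fold over Div5 (adjusted p = 0.0373). These values rest on 105 to 157 counts a library. The partners stood in different proportion: per length, Lig4 to Xrcc4 was 1.50 and 1.50 in Div8pos libraries, 0.512 and 0.643 in Div8neg libraries, and between 0.27 and 0.476 in the 8 libraries of the other groups. Lig4 to Trp53bp1 was 2.22 and 1.89 in Div8pos libraries, against 0.389 and 0.396 in Div8neg libraries.

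**Figure D2:**
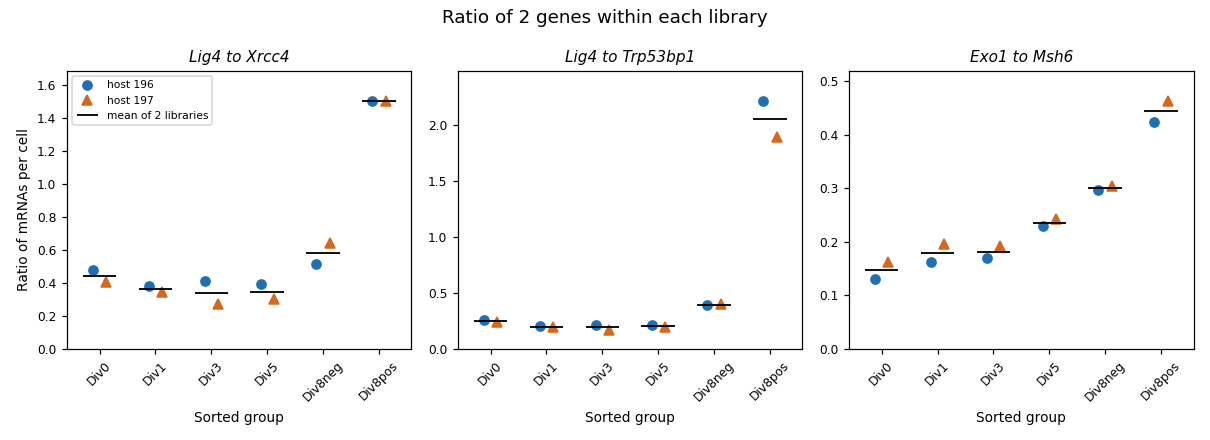
Ratio of mRNAs per cell of 2 genes within each library (y axes, each from 0) by sorted group (x axes); circles are host 196, triangles host 197 and lines the mean of 2 libraries. Lig4 to Xrcc4 and Lig4 to Trp53bp1 stand apart in Div8pos, at 1.50 and about 2, while Exo1 to Msh6 climbs from Div3 on.

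Counted over the 8 genes, calls at single steps on the relative scale began with Div5 against Div3. The 0 of 8 at the earlier steps is near the share of all genes. Div5 against Div3 had 4 higher (Ung, Apex1, Exo1, Polh) and 0 lower, against 14.2% and 12.4% of all genes. That count of 4 fell most without the host 196 library of Div3 or the host 197 library of Div5. It also fell without the host 196 library of Div5 or either library of Div8neg. Leaving out 1 library could cut the number of all genes called at this step as well. Div8neg against Div5 had 6 higher, all but Trp53bp1 and Xrcc4, and 0 lower, against 26.9% and 26.6%. Div8pos against Div8neg had 4 higher (Ung, Exo1, Polh, Lig4) and 1 lower (Trp53bp1), against 36.6% and 35.4%, so that the lower call is no more than the share of all genes. The medians over the 8 genes at these 3 steps were 0.23, 0.46 and 0.27 on the log2 scale, beside -0.00, 0.00 and 0.01 over all genes.

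Across the whole span, Div8neg against Div0 had 6 genes higher and 1 lower, against 35.3% and 35.7% of all genes. Div8pos against Div0 also had 6 higher and 1 lower, against 40.2% and 42.2%. Both share the Div0 libraries, so they are not separate evidence. For Ung the changes were 3.00-fold in Div8pos and 2.36-fold in Div8neg over Div0, for Polh 2.79-fold and 2.09-fold, for Lig4 4.19-fold and 1.39-fold, and for Apex1 1.82-fold and 1.92-fold, in the same order. Trp53bp1 was 1.97-fold lower in Div8pos than in Div0.

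**Figure D3:**
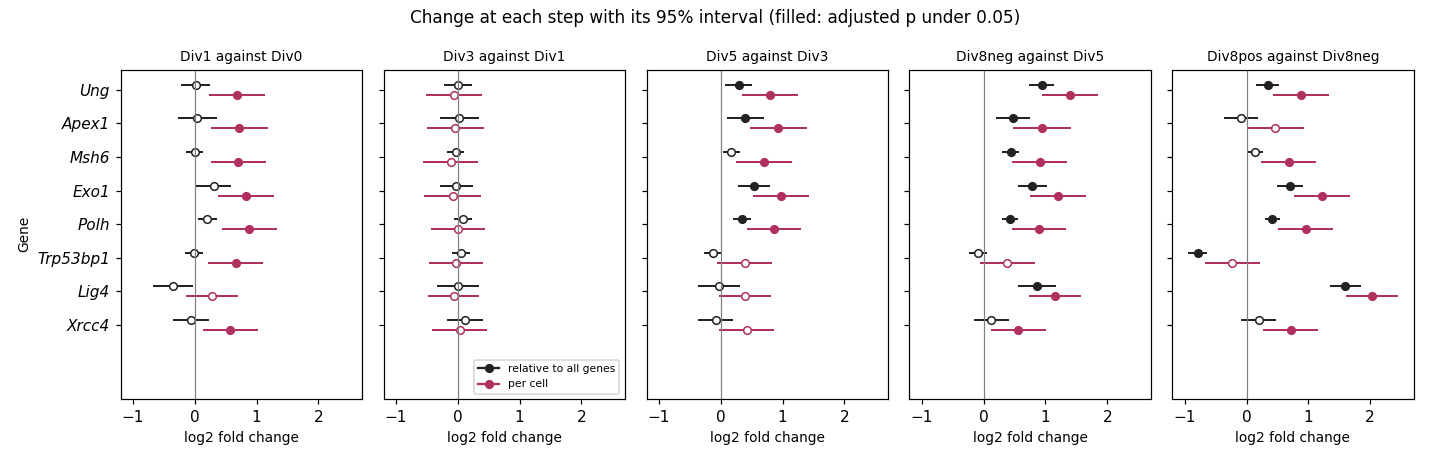
Log2 fold change (x axes) of each of the 8 genes (y axis) at the 5 steps, the later group over the earlier and Div8pos over Div8neg; bars are 95% intervals, black is relative to all genes, red is per cell, and filled points have an adjusted p under 0.05. No gene is filled in black at the first 2 steps, and Lig4 (1.59) and Trp53bp1 (-0.79) lie farthest apart at the last step.

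A slope over divisions was fitted to the 10 libraries outside Div8pos, with 32.8% of 11814 genes called upward and 32.8% downward. Exo1 rose by 0.19 ± 0.02 on the log2 scale for each division (adjusted p = 1.04e-05), Ung by 0.15 ± 0.02, Polh by 0.13 ± 0.01, Apex1 by 0.12 ± 0.02 and Msh6 by 0.07 ± 0.01, all called. Trp53bp1 had a slope of -0.02 (adjusted p = 0.0327), a call lost without the host 196 library of Div0 or Div1, the host 197 library of Div3 or Div5, or either library of Div8neg (adjusted p up to 0.154). Lig4 (0.07, adjusted p = 0.0787) and Xrcc4 (0.01, adjusted p = 0.421) were not called. The Lig4 slope was called without the host 196 library of Div0 (0.09, adjusted p = 0.0265) or the host 197 library of Div5 (0.07, adjusted p = 0.0386), and was 0.21 (adjusted p = 0.00698) with all 12 libraries. A straight line describes these genes only roughly, since most of the rise came after Div3.

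Per cell, most of the 8 genes were called higher at the steps where the total mRNA of the cells rose. The mean of Trp53bp1 went down at the last step, from 2.47 mRNAs per cell in Div8neg to 2.08 in Div8pos, a difference that was not called. In Div1 against Div0, 7 of 8 were called higher by limma, all but Lig4, against 77% of all genes, and in Div5 against Div3 5 of 8, against 42.7%. These 2 counts rest on single libraries. The first fell without the host 196 library of Div0 or the host 197 library of Div1. The second fell without the host 196 library of Div3 or of Div5. Leaving out 1 library could also cut the number of all genes called at both steps, so such a loss is not particular to the 8 genes. Div3 against Div1 had 0 of 8 called against 0.516% of all genes, with 0 at an unadjusted p under 0.05 and 0 by edgeR with spike-in scaling. In Div8neg against Div5 7 were higher, all but Trp53bp1, against 42.3% of all genes, and in Div8pos against Div8neg 6, all but Apex1 and Trp53bp1, against 52.1%. Apex1 had an adjusted p of 0.0713 at that last step without a host block and 0.0478 with it. The Xrcc4 call for Div8neg against Div5 was lost without any 1 of those 4 libraries (adjusted p up to 0.167), and the Msh6 and Xrcc4 calls at the last step without the host 196 library of Div8pos (0.0747 and 0.0715). In both Div8pos and Div8neg, all 8 were above Div0, against 82.5% and 88.4% of all genes.

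The median gene also moved on that scale, by 0.49 on the log2 scale for Div8pos against Div8neg and by 1.84 for Div8pos against Div0, beside medians of 0.80 and 3.31 for the 8 genes. Exo1 reached 7.20 and 6.94 mRNAs per cell in Div8pos, against 0.258 and 0.357 in Div0. Lig4 reached 4.67 and 3.90 in Div8pos, against 0.211 and 0.221 in Div0. Ung reached 17.8 and 13.4 mRNAs per cell in Div8pos, against 0.983 and 1.24 in Div0, which overtook Apex1, at 14.8 and 14.7 in Div8pos, in 1 of 2 libraries. Trp53bp1 and Xrcc4 were the lowest of the 8 in Div8pos, while in Div0 the lowest were Lig4 and Exo1.

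**Figure D4:**
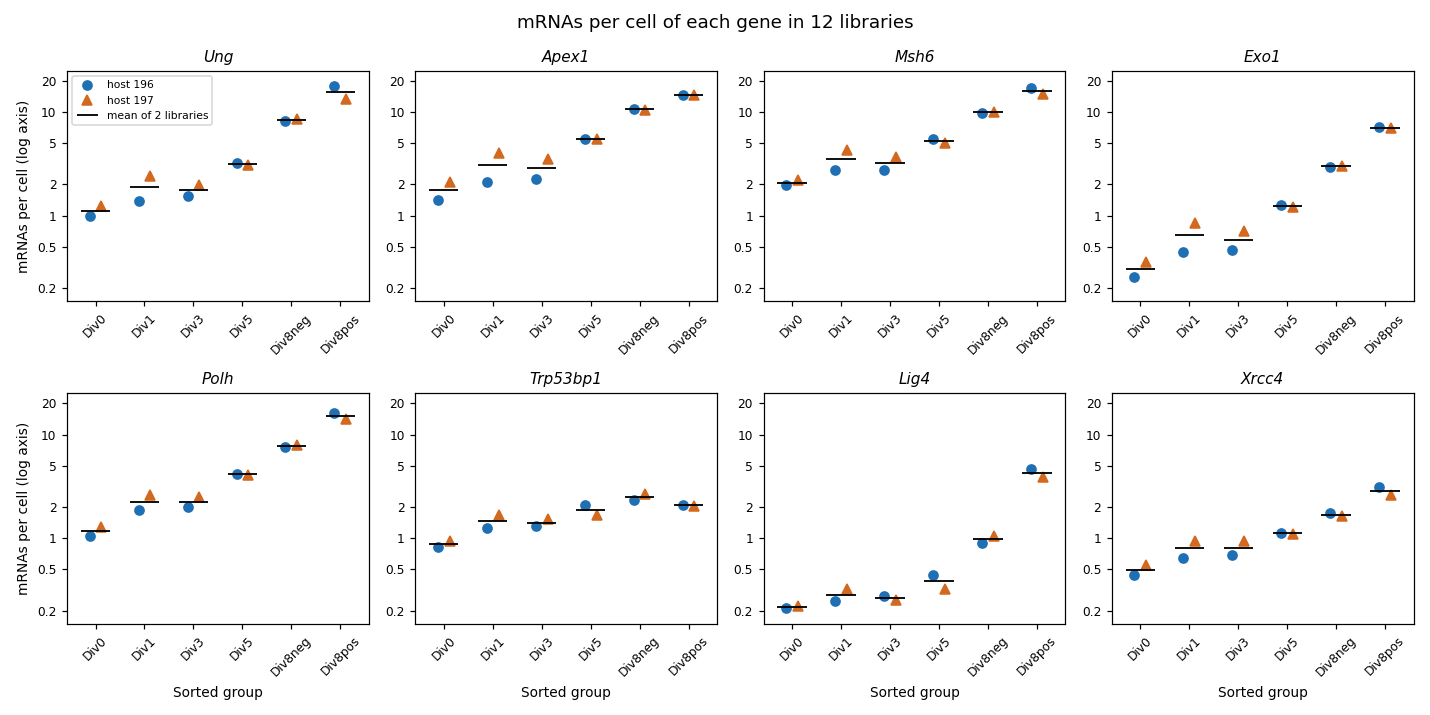
The authors' mRNAs per cell of each of the 8 genes (y axes, log scale, the same in every panel) by sorted group (x axes); circles are host 196, triangles host 197 and lines the mean of 2 libraries. All 8 are higher in both Div8 groups than in Div0, and the Trp53bp1 mean is 1.89 in Div5, 2.47 in Div8neg cells and 2.08 in Div8pos cells.

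The wider pathway was less uniform. Of 50 genes in the table that deaminate, repair or join DNA in class switching, apart from the 8, 26 were higher and 13 lower in Div8neg than in Div0, against 35.3% and 35.7% of all genes. In Div8pos 19 were higher and 10 lower than in Div8neg, against 36.6% and 35.4%, so that the higher count is near the share of all genes. The median log2 fold changes were 0.20 and 0.10, beside -0.01 and 0.01 over all genes. In translesion synthesis 3 of 7 were higher and 4 lower in Div8neg than in Div0. Polq, the polymerase of microhomology joining, was at 88.0 ± 5.6 CPM in Div8neg and 30.1 ± 3.9 CPM in Div0 (mean ± SD, n = 2 each), a 2.91-fold rise (adjusted p = 4.75e-10), while Poli, another translesion polymerase, was 2.24-fold lower (adjusted p = 1.35e-08). Smug1, a second uracil glycosylase, was at 7.73 CPM in Div8neg and 19.9 CPM in Div0, 2.58-fold lower (adjusted p = 1.24e-07), in the opposite direction to Ung.

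Between Div8pos and Div8neg, base excision genes had 4 of 8 higher and 2 lower, against 36.6% and 35.4% of all genes. Tdg, a thymine and uracil glycosylase, was at 234 CPM in Div8pos and 135 CPM in Div8neg, 1.73-fold higher (adjusted p = 1.05e-08). Lig3, the ligase of base excision and of microhomology joining, was at 163.5 and 75.9 CPM in the same order, 2.16-fold higher (adjusted p = 4.89e-10). Of 7 other end joining genes, 2 were higher and 3 lower, close to the same shares. Among them, and chosen after their values were seen, Prkdc, the kinase that holds broken ends, was 2.19-fold lower (adjusted p = 6.77e-07), Dclre1c, the nuclease Artemis, 1.85-fold lower (adjusted p = 7.71e-08), and Xrcc6 and Xrcc5, the Ku proteins that bind ends, 1.34-fold and 1.26-fold higher. Polm, a gap-filling polymerase of end joining, was 2.20-fold lower in Div8neg than in Div5 (adjusted p = 1.34e-08), while Rpa2 and Rpa3, which coat single-stranded DNA, were 1.60-fold and 1.46-fold higher at that step.

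Replication genes also changed, at the first step and again from Div5 on. Of 35 in the table, 10 were higher and 1 lower in Div1 than in Div0, against 5.44% and 3.91% of all genes. In Div3 0 were higher and 1 lower than in Div1, against 3.42% of all genes called in either direction. In Div5 28 were higher and 0 lower than in Div3, against 14.2% and 12.4% of all genes. In Div8neg 31 were higher and 0 lower than in Div5, against 26.9% and 26.6%. In Div8pos 27 were higher and 3 lower than in Div8neg, against 36.6% and 35.4%. Their summed level was 8432 to 8992 CPM in Div8pos, 7168 to 7278 CPM in Div8neg and 3381 to 3542 CPM in Div0 libraries, and its part in the changes of the 8 genes was not tested. Rrm2, a subunit of the enzyme that makes DNA precursors, was 2.15-fold higher in Div8pos than in Div8neg, and Cdc6, which loads the replicative helicase, 2.01-fold higher in Div8neg than in Div5. Pold1 and Rfc2, parts of the copying machinery, were 1.38-fold and 1.53-fold lower in Div8pos than in Div8neg.

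The genes whose pattern was most like that of a member were found by Pearson's r of log2 CPM over the 12 libraries, which share hosts and sorts. For Exo1 they were Cdc6, Prim1 and H2afz (r = 0.9967 to 0.9959), the first 2 of them replication genes. For Ung they were Smarca4, Dctd and Ranbp1 (0.9944 to 0.9926), and for Msh6 Setdb1, Ung itself (0.9894) and Hspa14. For Polh they were Ola1, Taf9 and Blmh, for Lig4 Nol8, Wdr77 and Pdxdc1, and for Apex1 they included Rrp7a and E030024N20Rik. Trp53bp1 was most like Tspyl4, Cd200 and Vps41 (0.9932 to 0.9919). Xrcc4 had the loosest match, Txnl4b at 0.9262, followed by Gpx4 and Ndnl2. Among the members, Trp53bp1 was inverse to each of the other 7 on this relative scale, from -0.9338 with Lig4 to -0.6664 with Apex1. Its level was 57.5 and 63.5 CPM in Div8pos libraries and 102 to 125 CPM in all others, and r without Div8pos was not computed. Per cell the Trp53bp1 mean was higher in Div8neg (2.47) than in Div0 (0.877), as were those of the other members.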

How the data were processed

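RNA was sequenced from 40000 sorted cells a library, to which ERCC spike-in RNA was added before RNA was extracted, per the labels' protocols. The deposited counts are reads over gene exons of mm9, per the readme deposited with them. Picard and R 3.2.2 are named in the submitters' processing notes; the aligner, the counter and the use of strand in counting are not given in the sources used, so overlapping genes cannot be told apart. The deposited FPKM values are per kilobase of exon and scaled to the library read total, by the authors. The authors' mRNAs per cell equal FPKM times 1 factor per library, found by dividing the spike-in molecules added for each cell by the FPKM summed over spike-ins, as checked on the values; they assume that spike-ins and mRNA were captured alike. Rows with no symbol (90) were left out, 0.0498 to 0.0943% of counts.

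Counts were tested with edgeR 4.0.16 (quasi-likelihood, TMM, filterByExpr, 12026 genes, 1 fit of 12 libraries) in R 4.3.3, and log2(mRNAs per cell + 0.1) with limma 3.58.1 with trend, on whose scale folds of low genes are understated; the slope fit tested 11814 genes. Adjusted p-values are Benjamini-Hochberg within a comparison, and called means under 0.05. Alternatives were DESeq2 1.42.0, spike-in scaling, no filter, other pseudocounts, the host as a block, fewer groups and leaving out each library. The 2 numbers are hosts, so same-numbered libraries share an animal; deviations from group means correlated at 0.0341 to 0.299 within hosts over 7 comparisons. The fits were tested on simulated counts. The 8 genes, gene lists and markers were chosen with earlier results of these data known. Named besides the 8 are list genes called with the largest change, up to 2 in each direction per comparison, and for each member the 3 genes with the highest r; some genes that this rule selects are not reported here. With 1 library a host and group, the spread behind the p-values is that between 2 hosts. It is pooled over the 6 groups and drawn toward that of other genes. Per-cell values of a library share 1 spike-in factor, so the per-cell calls of the 8 genes are not independent of each other.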

Additional observations from a re-analysis of the deposited data

How the results depend on the processing

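Of 2016 values recomputed for the 8 genes, 1905 kept their side of the threshold, 70 were no longer called and 34 became called. A further 7 turned direction where the value was called before or after. A turn of direction in a value not called either time was counted among the 1905. All 7 came from scaling to spike-ins, which moves the median gene as the per-cell scale does: for Div1 against Div0, Msh6 at 0.75, Trp53bp1 at 0.72 and Xrcc4 at 0.68 on the log2 scale; for Div8pos against Div8neg, Apex1 at 0.50; and Trp53bp1 at 1.51 for Div8neg against Div0, 1.29 for Div8pos against Div0 and 0.16 for the slope. The number of the 8 called in Div1 against Div0 was 7 with spike-in scaling, in place of 0. Per cell, limma called 77% of all genes higher at that step. With no filter on low counts the number was 1, beside 9.35% of all genes in the filtered fit. Per cell with no filter on low values it was 4 in place of 7 for Div1 against Div0. For Div5 against Div3 it was 0 in place of 5. The cause was not tested. The share of all genes in the fits without a filter is not given here, so these counts are not read as a result about the 8 genes. Leaving out 1 library gave 0 to 1 members called in Div1 against Div0, 1 to 4 in Div5 against Div3, 5 to 6 in Div8neg against Div5, 5 to 6 in Div8pos against Div8neg, 6 to 7 in Div8neg against Div0, 7 to 8 in Div8pos against Div0 and 5 to 6 for the slope. Per cell it gave 0 to 7 in Div1 against Div0, 0 to 6 in Div5 against Div3, 6 to 7 in Div8neg against Div5 and 4 to 7 in Div8pos against Div8neg. With the host as a replicate block, Div5 against Div3 had 5 of the 8 called in place of 4, and over the 15 pairs of groups calls changed for Msh6, Apex1 and Lig4 as given above and for no other member; the number of all genes called went to 1713 with the block, against 1124 without, for Div1 against Div0, and to 755 against 411 for Div3 against Div1 (per cell 117 against 62). Of the 8, Lig4 and Xrcc4 had the fewest counts, with 95 to 157 Lig4 counts a library up to Div5.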
